A study of Mus musculus with 9 samples.

Results

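The miRNAs miR-191 and miR-425 are cut from neighbouring hairpins and are widely used as reference miRNAs, that is, as the level against which other miRNAs are expressed. The members were the rows whose name begins with mmu-miR-191- or mmu-miR-425-. The rule found 4 of the 1140 rows of the table, mmu-miR-191-5p, mmu-miR-425-5p, mmu-miR-191-3p and mmu-miR-425-3p. No measured value entered the rule, but it was set with earlier results of these data known.

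Small RNA libraries were made from pieces of liver of male C57BL/6 mice that were 8 weeks old at the start. Control mice (n = 3) were injected with normal saline into the abdomen for 8 weeks. TAA mice (n = 3) received thioacetamide, a liver toxin that leads to fibrosis, every 3 days over the same 8 weeks, and recovery mice (n = 3) had the same course of thioacetamide and then 8 weeks without it. Recovery mice were therefore older at sampling, so that age and recovery cannot be told apart. All mice were of the same strain, and the labels name no modified allele. The question put to these rows was whether they keep their level through fibrosis and recovery, on the scale of library totals and on the scale of TMM factors.

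A miRNA hairpin is trimmed from a longer transcript by Drosha and then cut by Dicer into a duplex of a 5p and a 3p strand. One strand of the duplex is usually kept in an Argonaute protein and guides it to target mRNAs through the seed, bases 2 to 8, while the other is mostly degraded. Both hairpins studied here come from the Dalrd3 locus. The strand miR-191-5p is often used for normalization and is present at a moderate to high level in most tissues.

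The mature sequences show which strands were counted and that they share no seed. They are given from RefSeq (GRCm38.p6, the mm10 assembly to which the authors mapped), with the seed in capitals.
mmu-miR-191-5p: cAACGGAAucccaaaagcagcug
mmu-miR-425-5p: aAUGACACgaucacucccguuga
mmu-miR-191-3p: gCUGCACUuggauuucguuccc
mmu-miR-425-3p: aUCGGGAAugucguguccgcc
All 4 rows were matched by name. Among 935 listed rows with a RefSeq mature sequence, no other row shared a seed or a whole sequence with any of the 4. No other row had counts that differed from those of a member by less than 2%, taken as the summed difference over the 9 libraries relative to the sum of both rows, and the closest differed from mmu-miR-425-5p by 5.48%. The 5p strands are both 23 bases long, and the levels given below carry no length term.

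The hairpins are shown because their position and strands define the pairs compared further on. The mature strands are in capitals, the 5p strand first.
Mir191: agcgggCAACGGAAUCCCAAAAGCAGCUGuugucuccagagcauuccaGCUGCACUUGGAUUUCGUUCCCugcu
Mir425: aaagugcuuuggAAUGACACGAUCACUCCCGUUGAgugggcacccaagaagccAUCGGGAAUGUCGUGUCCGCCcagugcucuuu
Mir191 lies at chr9:108568319-108568392 and Mir425 at chr9:108568777-108568861, both on the plus strand of GRCm38. The hairpins are 384 bases apart. GENCODE release M21 places each of them in an exon of the lincRNA 4833445I07Rik (chr9:108567533-108569174) and starts Dalrd3 1024 bases downstream of Mir425. RefSeq gives Dalrd3 a wider span (chr9:108567484-108572773), which holds both hairpins. GENCODE also lists a miRNA gene, Gm24083, on the minus strand across Mir191 (chr9:108568295-108568414). The use of strand in counting was not given in the sources used here, so whether reads of that gene were counted as miR-191 is not known.

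Library totals ranged from 9071847 to 12983378 counts. TMM factors, which rescale a library so that most miRNAs keep their level, were 0.739 to 0.792 in control livers, 1.43 to 1.63 in TAA livers and 0.766 to 0.887 in recovery livers. The miRNAs mmu-miR-122-5p, mmu-miR-122b-3p and mmu-miR-21a-5p together held between 56.2% and 66.5% of the counts of a library. The hepatocyte miRNAs mmu-miR-122-5p, mmu-miR-192-5p and mmu-miR-194-5p, which mark the labelled tissue, were all present. Their summed share of the counts, per 1000000, was 273164 to 298472 in control livers, 163104 to 175763 in TAA livers and 242229 to 307701 in recovery livers. In bulk tissue, fewer cells of a type and less of its RNA per cell cannot be told apart.

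In the fibrotic liver, both guide strands made up a larger part of the library than in the control liver. On the scale of library totals, in counts per 1000000 (CPM), mmu-miR-191-5p rose 2.13-fold and mmu-miR-425-5p 2.75-fold in TAA livers. On this scale 71.9% of all 420 rows rose with a false discovery rate below 0.05. The median log2 fold change of all rows was 1.23, against 1.09 and 1.46 for these strands. On the TMM scale neither passed the test, with folds of 0.978 and 1.27, although mmu-miR-425-5p passed it with a stricter filter or without TAA replicate 3. Of all 420 rows, 58.3% passed the test on the TMM scale. After 8 weeks of recovery, the levels of both strands overlapped those of control livers on either scale.

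mmu-miR-191-5p, the guide strand most often used as a reference, ranked between place 29 and place 35 of all rows in every library. On the library-total scale its level was 879.6, 839.9 and 927 CPM in control replicates 1 to 3, 1718, 1959 and 1957 CPM in TAA replicates 1 to 3, and 1096, 1048 and 843 CPM in recovery replicates 1 to 3. The TAA samples lay above all others, and control and recovery overlapped. Of all rows tested, 73.3% had every TAA sample above every control sample, and 63.6% above every recovery sample. On the TMM scale the level was 1110.4, 1137 and 1227 CPM in control livers, 1199, 1199.8 and 1204 CPM in TAA livers, and 1430.4, 1181 and 962 CPM in recovery livers. Here all 3 groups overlapped, and the highest and the lowest of the 9 values both belonged to the recovery group. The group means were 1158 ± 61.2, 1201 ± 2.81 and 1191 ± 234 CPM (SD, n = 3), in the order control, TAA and recovery. These levels used TMM factors over all 9 samples. The tests took factors over the 6 samples of a comparison, so a fold can differ from the ratio of these means. In TAA vs control the log2 fold change was -0.032 in the test and 0.052 in a fit of all 9 samples.

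mmu-miR-425-5p was the less abundant guide strand and ranked between place 77 and place 101. On the library-total scale it was measured at 80.3, 78.2 and 95.4 CPM in control livers, at 267, 236 and 197 CPM in TAA livers, and at 71.5, 98.6 and 95.2 CPM in recovery livers. Again the TAA samples stood above the rest without overlap, as for 73.3% of all rows against control and 63.6% against recovery. On the TMM scale the values were 101, 106 and 126 CPM in control livers, 186, 145 and 121 CPM in TAA livers, and 93.3, 111 and 109 CPM in recovery livers. TAA replicate 3 fell below control replicate 3, so that these groups overlapped, whereas every TAA sample exceeded every recovery sample. The latter held for 28.9% of all rows on this scale.

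**Figure D1:**
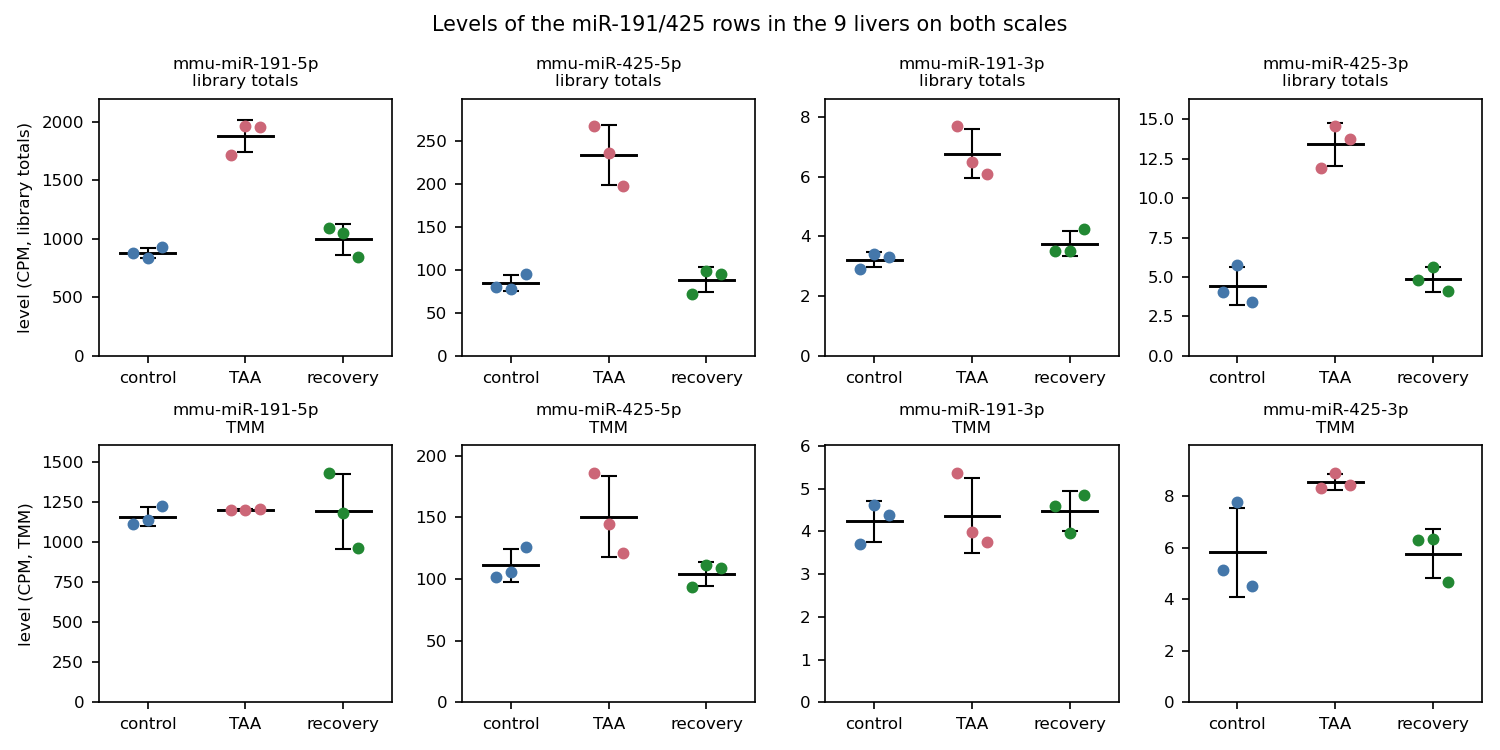
Level of each miR-191 and miR-425 row in CPM (y axis, from 0) in the control, TAA and recovery groups (x axis), on library totals (top) and on the TMM scale (bottom). Points are livers, lines are means and bars are ± 1 SD (n = 3). In the top row all TAA points lie above the others, as for 73.3% of all rows against control and 63.6% against recovery. In the bottom row mmu-miR-191-5p has means of 1158, 1201 and 1191 CPM.

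The passenger strands were counted at low levels. mmu-miR-191-3p had 38, 35 and 33 counts in control livers, 87, 59 and 56 in TAA livers, and 43, 43 and 53 in recovery livers. As CPM of the library total its mean was 3.22 ± 0.256, 6.77 ± 0.820 and 3.76 ± 0.427 for control, TAA and recovery mice (SD, n = 3), and on the TMM scale 4.23 ± 0.481, 4.37 ± 0.870 and 4.47 ± 0.466. mmu-miR-425-3p had 53, 59 and 34 counts in control livers, 135, 132 and 126 in TAA livers, and 59, 69 and 51 in recovery livers. Its TMM level was 5.15, 7.78 and 4.53 CPM in control livers, 8.33, 8.91 and 8.46 CPM in TAA livers, and 6.31, 6.34 and 4.67 CPM in recovery livers. On library totals every TAA sample lay above every control sample for all 4 members, as it did for 73.3% of the 420 rows tested, and above every recovery sample, as for 63.6% of 440 rows. On the TMM scale, mmu-miR-425-3p was the only member whose TAA samples all lay above the control samples (39.3% of the rows). Both strands of miR-425, and neither strand of miR-191, had all TAA samples above the recovery samples (28.9% of the rows).

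Comparison of TAA with control mice asked whether fibrosis altered the reference miRNAs. The test was the quasi-likelihood F test of edgeR, with the false discovery rate (FDR) taken over all 420 rows tested, and each fold change is given with its 95% interval. Under TMM, 0 of 4 members had an FDR below 0.05, against 58.3% of all rows (31.9% higher and 26.4% lower). DESeq2 also called 0, and 0 had an unadjusted p-value below 0.05 in either tool. mmu-miR-191-5p had a log2 fold change of -0.032 (SE 0.10, 95% interval -0.27 to 0.21, FDR 0.813). The interval lay within a fold of 2 in both directions and corresponds to folds of 0.827 to 1.16. For mmu-miR-425-5p the log2 fold change was 0.35 (SE 0.17, interval -0.044 to 0.74, FDR 0.113), also within a fold of 2. It passed the threshold without TAA replicate 3 (0.49, FDR 0.0303) and with a filter at a mean of 10 CPM (0.54, FDR 0.0221). The intervals of the passenger strands were wider, -0.60 to 0.52 for mmu-miR-191-3p and -0.12 to 1.07 for mmu-miR-425-3p, and the latter did not exclude a fold of 2.

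Under library totals, 4 of 4 members were higher in TAA livers with an FDR below 0.05 and a fold of at least 2. Of all rows, 71.9% were called higher by FDR and 57.4% with the fold of 2 as well, so a rise was also called for most other rows. The log2 fold changes were 1.09 for mmu-miR-191-5p (interval 0.83 to 1.35, FDR 0.000152), 1.46 for mmu-miR-425-5p (1.08 to 1.84, FDR 0.000199), 1.07 for mmu-miR-191-3p (FDR 0.00387) and 1.60 for mmu-miR-425-3p (FDR 0.000821). The median of all 420 rows was 0.11 under TMM and 1.23 under library totals. On both scales 43.8% of the rows had a log2 fold change no higher than that of mmu-miR-191-5p, and 56.7% no higher than that of mmu-miR-425-5p. A scaling shifts all rows together, so this place in the order differs little between the scales. The TAA group had a lower summed share of the hepatocyte miRNAs, given above, and the part of this in the rise of the members was not tested.

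Comparison of recovery with TAA mice asked whether the rows moved back after withdrawal. Both comparisons use the same TAA samples. Under TMM, 1 of 4 members, mmu-miR-425-5p, fell with an FDR below 0.05, against 20.7% of all 440 rows. Its log2 fold change was -0.54 (SE 0.18, interval -0.95 to -0.14, FDR 0.0415), which is less than a fold of 2. The call was lost without TAA replicate 1 (-0.33, FDR 0.147), TAA replicate 2 (-0.50, FDR 0.105) or recovery replicate 1 (-0.40, FDR 0.208), 2 (-0.57, FDR 0.106) or 3 (-0.53, FDR 0.132), and with DESeq2 (-0.49, FDR 0.0598). mmu-miR-191-5p had a log2 fold change of -0.036 (SE 0.17, interval -0.43 to 0.36, FDR 0.887), within a fold of 2. mmu-miR-191-3p had a log2 fold change of 0.013 (FDR 0.966) and mmu-miR-425-3p one of -0.59 (unadjusted p = 0.0321 in edgeR, FDR 0.0714).

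Under library totals, 4 of 4 members fell from TAA to recovery with an FDR below 0.05, against 60% of all rows. Of these, mmu-miR-425-5p (-1.40, interval -1.85 to -0.95, FDR 0.000818) and mmu-miR-425-3p (-1.46, FDR 0.00134) passed the fold of 2, as did 46.1% of all rows. mmu-miR-191-5p (-0.92, interval -1.28 to -0.56, FDR 0.00177) and mmu-miR-191-3p (-0.85, FDR 0.0158) stayed below it. The median of all rows was -0.12 under TMM and -0.98 under library totals.

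Comparison of recovery with control mice asked what remained after withdrawal, and it shares its samples with the comparisons above. On either scale 0 of 4 members had an FDR below 0.05, against 14.1% of all 391 rows under TMM and 16.1% under library totals, and 0 had an unadjusted p-value below 0.05 in edgeR, DESeq2 or limma. All 8 intervals lay within a fold of 2, a property that was not counted over all rows. The log2 fold change of mmu-miR-191-5p was 0.0017 under TMM (interval -0.30 to 0.30) and 0.17 under library totals (interval -0.095 to 0.44). For mmu-miR-425-5p it was -0.13 (interval -0.42 to 0.17) and 0.063 (interval -0.29 to 0.42). On library totals every recovery sample of mmu-miR-191-3p (3.50 to 4.25 CPM) lay above every control sample (2.93 to 3.41 CPM). On the TMM scale these groups overlapped. The share of all rows with such a separation was not counted.

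**Figure D2:**
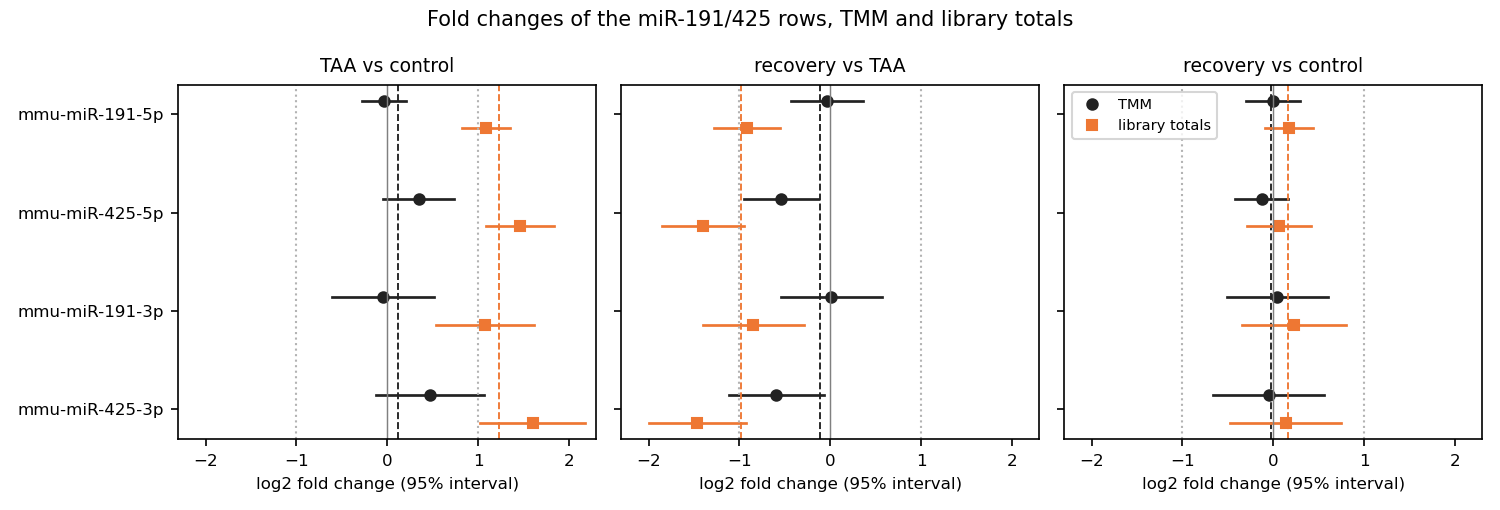
Log2 fold change (x axis) of the 4 miR-191 and miR-425 rows (y axis) in the 3 comparisons, with 95% intervals, under TMM (black circles) and library totals (orange squares). Dashed lines mark the median of all rows tested on each scale and dotted lines a fold of 2. In TAA vs control the orange points sit between 1.07 and 1.60 and the black points between -0.042 and 0.47.

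A ratio of 2 counts from the same library does not depend on the scaling, and 3 such ratios were compared. The count of mmu-miR-191-5p exceeded that of mmu-miR-425-5p by 10.9, 10.7 and 9.72 times in control livers, 6.45, 8.30 and 9.94 times in TAA livers, and 15.3, 10.6 and 8.85 times in recovery livers. The TAA samples reached lower than the others, but TAA replicate 3 lay above control replicate 3. The mean log2 ratio was lower in TAA livers than in control livers by 0.37 and higher in recovery than in TAA by 0.48, each with an exact two-sided permutation p = 0.2 and 0.9 after adjustment over the 9 tests of this kind. With 3 against 3 samples the smallest p is 0.1, so that no such test could pass 0.05. A difference in the response of the guide strands, of which one passed the test in recovery vs TAA under TMM and the other did not, was therefore not shown.

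Within each hairpin, the 5p strand was dominant in all libraries. mmu-miR-191-5p was counted 198 to 320.4 times as often as mmu-miR-191-3p, and mmu-miR-425-5p 13.6 to 27.9 times as often as mmu-miR-425-3p. The 3p strand made up 0.364% ± 0.0369 of the miR-191 counts in control livers, 0.362% ± 0.0724 in TAA livers and 0.385% ± 0.101 in recovery livers (SD, n = 3). For miR-425 these shares were 5.05% ± 1.70, 5.54% ± 1.15 and 5.28% ± 1.11. Group means of the log2 strand ratio differed by 0.030 to 0.17 in size between groups, with exact permutation p-values of 0.6 to 0.9 before adjustment and 0.9 after. The counts behind a 3p share were few, and for miR-425 in control replicate 3 the share of 3.46% had a 95% Wilson interval of 2.49% to 4.79%, which covers counting error only.

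**Figure D3:**
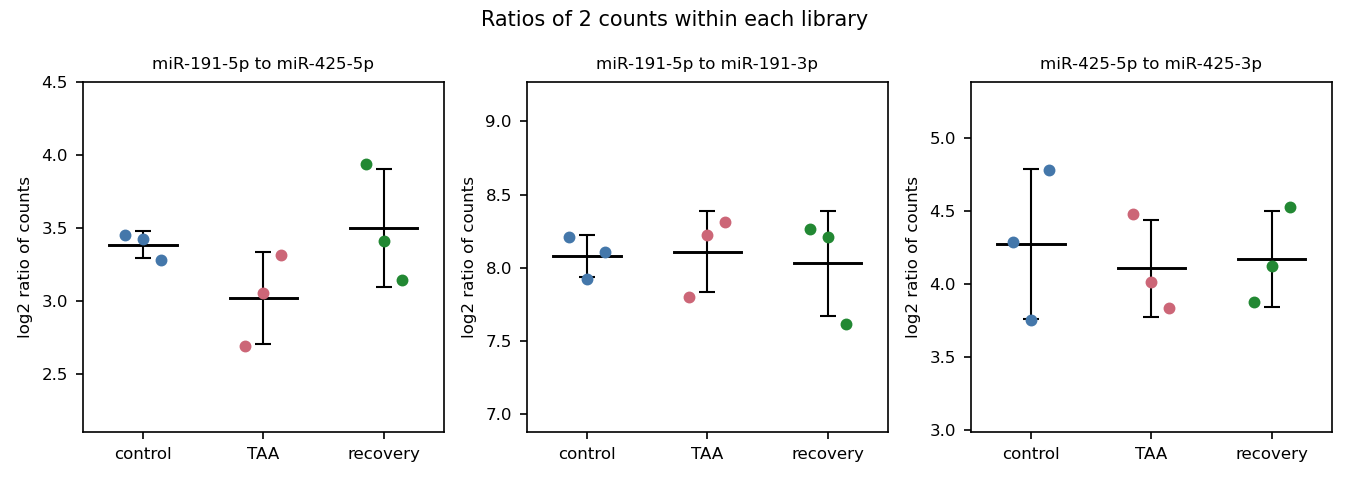
Log2 ratio of 2 counts (y axis, not from 0 and of the same log2 width in each panel) in the control, TAA and recovery groups (x axis). Points are livers, lines are means and bars are ± 1 SD (n = 3). In every panel the points of the groups overlap.

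To place the members among all rows, the range over the 3 group means of log2(CPM + 1) was computed for every row with a mean of at least 10 CPM. On the TMM scale the range was 0.054 for mmu-miR-191-5p and 0.51 for mmu-miR-425-5p, against a median of 0.81 over 226 rows. A smaller range was found for 4 rows (1.77%) in the case of mmu-miR-191-5p and for 77 rows (34.1%) in the case of mmu-miR-425-5p. On the library-total scale the ranges were 1.09 and 1.45, against a median of 1.09 over 233 rows, and 49.4% and 62.7% of the rows had a smaller range. Among the 100 rows with a mean of at least 100 CPM on the TMM scale, mmu-miR-191-5p took the second lowest place, between mmu-miR-143-3p (0.046), a miRNA of smooth muscle and myofibroblasts, and mmu-miR-151-3p (0.059). On the library-total scale it was place 66 of 101, and the lowest ranges were those of mmu-let-7g-5p (0.035), mmu-miR-22-3p (0.058) and mmu-miR-30e-3p (0.081). TMM places the middle of all fold changes near 0 by construction, so a row near that middle has a small range under TMM. In TAA vs control 43.8% of the rows had a log2 fold change no higher than that of mmu-miR-191-5p, and in recovery vs TAA 53.6%. The low range of mmu-miR-191-5p on the TMM scale also rested in part on recovery replicates on either side of the other groups. Without recovery replicate 1 or 3 it was 0.17 in each case, and mmu-miR-191-5p then took place 9 of the 100 rows. Without control replicate 3 it was 0.096 (place 3) and without control replicate 1 it was 0.031 (place 1). The SD over the 9 samples of mmu-miR-191-5p was 0.15 on the TMM scale, and 5.31% of the rows had a smaller one.

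**Figure D4:**
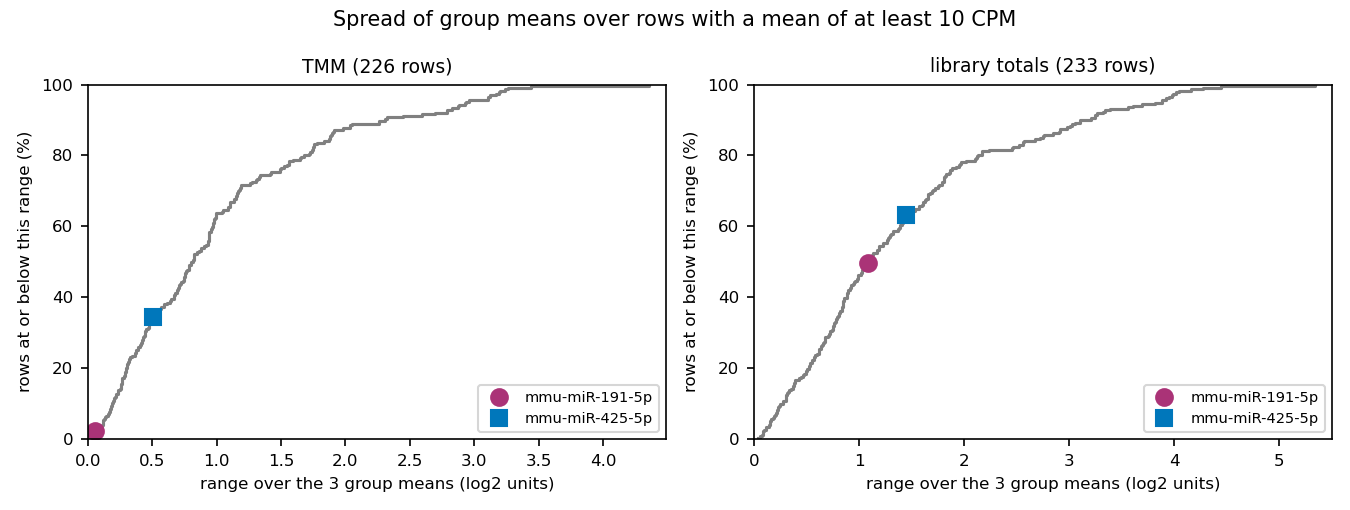
Share of rows (y axis, %) with a range over the 3 group means (x axis, log2 units) at or below a given value, on the TMM scale (226 rows) and on library totals (233 rows). mmu-miR-191-5p (circle) moves from 0.054 to 1.09 and mmu-miR-425-5p (square) from 0.51 to 1.45 between the scales.

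The rows most like the guide strands were sought by the root mean square difference of log2(CPM + 1), centred on each row, over the 9 samples on the TMM scale. Closest to mmu-miR-191-5p were mmu-miR-185-5p (0.10), mmu-let-7d-5p (0.10) and mmu-miR-423-3p (0.13). For mmu-miR-425-5p they were mmu-miR-350-3p (0.094), mmu-let-7e-5p (0.12) and mmu-miR-93-5p (0.15). mmu-let-7e-5p had mean levels of 162, 215 and 157 CPM in the control, TAA and recovery groups, and mmu-miR-423-3p had 168, 174 and 183 CPM. Although the guide strands come from neighbouring hairpins, they were not closest to each other. Their difference was 0.32, and among 225 rows mmu-miR-425-5p took place 74 in likeness to mmu-miR-191-5p.

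As a list for comparison, 12 other miRNAs in common use as references were taken with no filter on their values. The list was chosen with earlier results of these data known. All 12 were tested in each comparison. In TAA vs control under TMM, 1 rose, 5 fell and 6 did not pass the test (FDR below 0.05), and the median log2 fold change was 0.0072. Of all 420 rows, 31.9% rose and 26.4% fell, with a median of 0.11. mmu-miR-24-3p, which is made from the same transcripts as miR-23 and miR-27, rose by 0.46 (FDR 0.0178). The 5 that fell were mmu-miR-30c-5p (-0.96, FDR 0.000650), mmu-let-7a-5p (-0.79, FDR 0.000433), a member of the let-7 family that restrains growth genes, mmu-miR-26a-5p (-0.76, FDR 0.00161), mmu-miR-16-5p (-0.56, FDR 0.00621), which restrains cell cycle genes, and mmu-miR-103-3p (-0.40, FDR 0.0381). Under library totals 11 of the 12 rose, against 71.9% of all rows, none of them fell, and mmu-miR-30c-5p did not pass the test (0.16, interval -0.10 to 0.42). The same 5 miRNAs that fell under TMM had the lowest values under library totals, between 0.16 and 0.72.

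The miRNAs of the list with the smallest change under TMM thus differed from those with the smallest change under library totals. mmu-miR-151-3p, processed from an intron of Ptk2, had a log2 fold change of -0.024 under TMM (interval -0.35 to 0.30) and 1.10 under library totals (FDR 0.000363), close to the values of mmu-miR-191-5p. mmu-miR-93-5p and mmu-miR-25-3p, from a cluster in an intron of Mcm7, had 0.12 and 0.11 under TMM and 1.24 and 1.23 under library totals. In recovery vs TAA under TMM, 3 of the 12 rose and 1 fell, with a median of -0.022, against 18.4% and 20.7% of all 440 rows. Under library totals 9 fell, against 60% of all rows, and none rose. In recovery vs control 0 of the 12 passed the FDR on either scale, against 14.1% of all rows under TMM and 16.1% under library totals. All 12 intervals lay within a fold of 2 on both scales, a property that was not counted over all rows. The unadjusted p-value was below 0.05 only for mmu-miR-16-5p (-0.30), under TMM in edgeR and in DESeq2, and for none of the list under library totals or in limma.

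**Figure D5:**
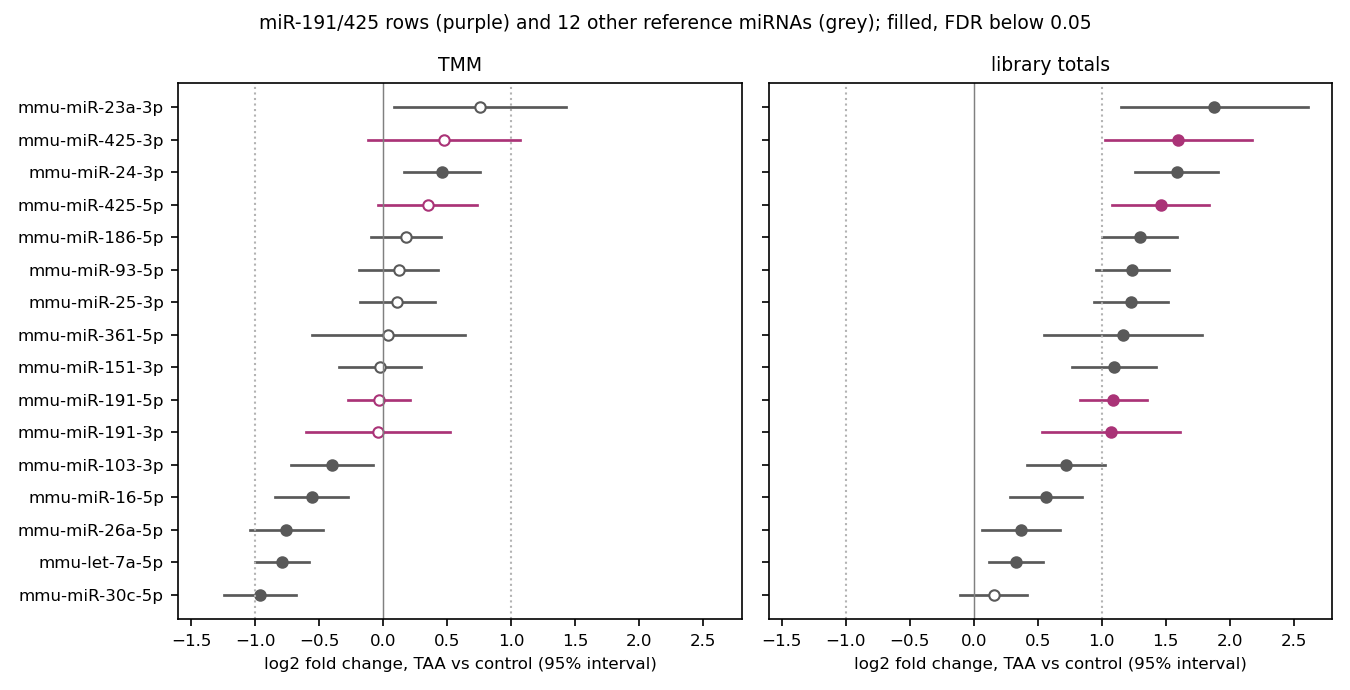
Log2 fold change in TAA vs control (x axis, with 95% intervals) of the 4 miR-191 and miR-425 rows (purple) and 12 other reference miRNAs (grey), under TMM (left) and library totals (right). Filled points have an FDR below 0.05 and dotted lines mark a fold of 2. On the left the values run from -0.96 to 0.76 and on the right from 0.16 to 1.88, in nearly the same order.

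Ratios to mmu-miR-191-5p within a library show how far the choice of reference moves a value. They were taken only for the 12 other reference miRNAs and mmu-miR-425-5p. Among these, the SD of the log2 ratio over the 9 samples was lowest for mmu-miR-186-5p (0.19), mmu-miR-151-3p (0.198) and mmu-miR-93-5p (0.21). The SD was 0.34 for mmu-miR-425-5p and was highest for mmu-miR-30c-5p (0.48). From control to TAA the ratio of mmu-miR-30c-5p to mmu-miR-191-5p changed by -0.93 and that of mmu-miR-23a-3p by 0.74, on the log2 scale. When all rows tested in TAA vs control were expressed relative to mmu-miR-191-5p, their median log2 fold change was 0.14, with 236 rows above 0 and 183 below. Relative to mmu-miR-425-5p it was -0.23 (182 rows above, 237 below), and relative to mmu-miR-16-5p it was 0.67 (309 rows above, 110 below). In recovery vs TAA these medians were -0.080, 0.43 and -0.30 in the same order.

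miRNAs that mark other cell types of the liver moved between the groups beside these values. On the TMM scale all 4 bile duct miRNAs of the marker list and 4 of the 5 leukocyte miRNAs were higher in TAA than in control mice (FDR below 0.05), as were 3 of the 5 miRNAs of stellate cells and fibroblasts. All 3 hepatocyte miRNAs, both endothelial miRNAs and 2 of the 3 red cell miRNAs were lower, and none of the 22 marker miRNAs was at 0 in all libraries. Of all rows, 31.9% were higher and 26.4% lower. From TAA to recovery, the 3 hepatocyte and 2 endothelial miRNAs rose again, all 4 bile duct, 3 leukocyte and 3 stellate cell and fibroblast miRNAs fell, and 0 of the 3 red cell miRNAs passed the test, against 18.4% of all rows that rose and 20.7% that fell. The summed TMM level of the bile duct list was 579.8 to 763 CPM in control livers, 3324 to 5527 CPM in TAA livers and 1237 to 1409.8 CPM in recovery livers, without overlap. The sums of the stellate cell and fibroblast list overlapped, at 25480 to 31109, 18032 to 39505 and 21869 to 35800.0 CPM in the same order. The summed TMM level of the leukocyte list was 196 to 224 CPM in control livers, 286 to 330.1 CPM in TAA livers and 156 to 234 CPM in recovery livers. The part of these cell types in the values of the members was not tested.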

How the data were processed

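Small RNA of 9 mouse livers was analysed, in 3 groups of 3 taken from the sample titles. The authors made the libraries with a NEBNext kit, mapped reads with Bowtie (1.3.0, per the labels) to mm10 and miRBase, and deposited raw read counts per mature miRNA beside a TPM value. The deposited TPM equalled the count per 1000000 counts of the library, with no length term. Treatment of reads with several matches was not given in the sources used here.

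Counts were tested with edgeR (4.0.16, R 4.3.3): filterByExpr (minimum count 10), TMM factors, glmQLFit and glmQLFTest on the 6 samples of a comparison, without covariates, with Benjamini-Hochberg FDR over all rows. The SE was the size of the log2 fold change divided by the root of F. The study used DESeq2, which served as an alternative (1.42.0), as did limma (3.58.1) on log2(TPM + 1). CPM on the TMM scale used factors over the 9 samples. Ratios used a pseudocount of 0.5 and exact two-sided permutation tests (scipy 1.17.1). The edgeR fit was tested on simulated counts in which as many rows were set to rise as to fall. That setting does not check the choice of scale for these data. Each library came from a different mouse, and p-values measure the spread between mice. No replicates agreed within sampling noise. The precision of each value is limited by 3 samples a group and, for the 3p strands, by low counts.

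Named miRNAs were the 4 members, the 12 other reference miRNAs, the 3 rows most like each guide strand, the 3 rows of lowest range on each scale and a list of cell type markers. Members and lists were chosen with earlier results of these data known. Alternatives were other scalings, tests, filters, pseudocounts and references, a fit of all 9 samples, removal of the 3 most abundant miRNAs, the replicate number as a block, and removal of each replicate in turn.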

Additional observations from a re-analysis of the deposited data

How the results depend on the processing

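TMM and the size factors of DESeq2 place the middle of all fold changes near 0 by construction, so a row near the middle has a value near 0 on these scales. Whether the middle itself moved cannot be told from counts alone.

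In TAA vs control, mmu-miR-191-5p had log2 fold changes of 1.09 under library totals, 1.09 with limma on log2(TPM + 1), 1.09 with a pseudocount of 0.1, 0.17 with a filter at a mean of 10 CPM and 0.052 in a fit of all 9 samples. mmu-miR-425-5p had 1.46, 1.45, 1.46 and 0.54 (FDR 0.0221) under the first 4 of these. mmu-miR-191-3p had 1.07, 0.88, 1.05 and, in the fit of all samples, 0.051.

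In recovery vs TAA, mmu-miR-191-5p had -0.92 under library totals and with both limma fits, 0.022 with the size factors of DESeq2 and with DESeq2, and 0.14 with upper quartile factors. mmu-miR-425-5p lost its call with the size factors of DESeq2 (-0.49), DESeq2 (-0.49), upper quartile factors (-0.37), no filter (-0.56) and removal of mmu-miR-122-5p, mmu-miR-122b-3p and mmu-miR-21a-5p (-0.54). mmu-miR-191-3p had -0.85 under library totals, -0.70 and -0.83 with limma (pseudocounts 1 and 0.1) and -0.0029 without a filter.

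In recovery vs control, mmu-miR-191-5p had -0.0031 with the size factors of DESeq2 and with DESeq2, -0.13 with upper quartile factors and -0.023 without a filter. mmu-miR-425-5p had 0.063 under library totals and 0.054 with both limma fits, mmu-miR-425-3p had 0.14, 0.13 and 0.15, and mmu-miR-191-3p had -0.095 with upper quartile factors. The values in this comparison stayed short of the threshold.

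The labels give same-numbered samples only a number in common. The correlation of their deviations from the group means ran from -0.36 to 0.37. Whether they shared a step of processing was not tested. With the replicate block, mmu-miR-425-5p lost its call in recovery vs TAA (-0.53, FDR 0.11), mmu-miR-191-5p had -0.015 in recovery vs control, and the other calls of the guide strands were the same.

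With each replicate left out in turn, the log2 fold changes are given for TAA vs control, then recovery vs TAA, then recovery vs control. They ran from -0.053 to 0.019, -0.12 to 0.13 and -0.13 to 0.12 for mmu-miR-191-5p and from 0.23 to 0.49, -0.66 to -0.33 and -0.19 to -0.031 for mmu-miR-425-5p. For mmu-miR-191-3p it ran from -0.16 to 0.067, -0.063 to 0.22 and -0.053 to 0.15, and for mmu-miR-425-3p from 0.31 to 0.73, -0.65 to -0.42 and -0.21 to 0.18. The log2 ratio of mmu-miR-191-5p to mmu-miR-425-5p differed by -0.51 to -0.20, 0.26 to 0.65 and -0.11 to 0.29, that of mmu-miR-191-5p to its 3p strand by -0.071 to 0.19, -0.24 to 0.13 and -0.17 to 0.16, and that of mmu-miR-425-5p to its 3p strand by -0.43 to 0.088, -0.11 to 0.25 and -0.36 to 0.15.

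The range over group means was 1.09 for mmu-miR-191-5p and 1.45 for mmu-miR-425-5p under library totals, and 0.031 to 0.17 and 0.34 to 0.65 on the TMM scale with a replicate left out. The median of all rows moved from its value relative to mmu-miR-191-5p to -0.23, -0.044 and 0.67 in TAA vs control and to 0.43, 0.17 and -0.30 in recovery vs TAA, relative to mmu-miR-425-5p, the mean of both guide strands and mmu-miR-16-5p, and to 0.28 in recovery vs control relative to mmu-miR-16-5p.

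Rows called by FDR with a fold of 2 numbered 175 of 420, 109 of 440 and 44 of 391 in the 3 comparisons. With the 10 CPM filter they numbered 85 of 239, 60 of 248 and 13 of 208. Under library totals they numbered 245 of 420, 207 of 440 and 49 of 391.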
